A study of Mus musculus with 6 samples.

Results

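This report describes 52 genes of the basement membrane and the extracellular matrix in mouse advanced pluripotent embryonic stem cells (ASCs) with and without *Bdh2*, a gene for a 3-hydroxybutyrate dehydrogenase. The genes were chosen by name from the 54715 genes of the count table and comprise 9 laminin chains, 12 collagen chains, 7 proteoglycans, 11 other glycoproteins and 13 enzymes, chaperones and inhibitors that modify the matrix. RNA-Seq was performed on 3 libraries of WT ASCs and 3 libraries of *Bdh2*-knockout (*Bdh2*-/-) ASCs, and the comparison asks how the transcripts of each class differ between the genotypes. Both lines came from a 129/sv female mated with a male carrying the GOF/GFP reporter, in which an *Oct4* promoter drives GFP. Both were grown in a medium with activin A, BMP4, the GSK3 inhibitor CHIR99021 and leukemia inhibitory factor. The knockout was made with CRISPR/Cas9 and is a single-cell clone with a deletion on both alleles, so that effects of the genotype and of the clone cannot be told apart. Whether the 3 libraries of a genotype came from separate cultures is not stated, and p-values then measure only the spread between these libraries, which may be technical.

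A basement membrane is a thin sheet of matrix under epithelial and endothelial cells. Laminins, which are trimers of an alpha, a beta and a gamma chain, and type IV collagen, whose common trimer holds 2 alpha1 chains for each alpha2 chain, form separate networks in it, and nidogens and the heparan sulfate proteoglycans perlecan and agrin bridge them. In the early mouse embryo the primitive endoderm and its parietal derivative secrete much of this material, and laminin is also made by pluripotent cells. Fibrillar collagens, fibronectin and tenascin are typical of interstitial matrix, though the fibronectin transcript was also abundant in these ASCs.

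The 6 libraries held 18927748 to 28333541 counts on genes, and 0.581% to 0.639% of them fell on the 52 genes. A level of 3 counts, taken as the smallest that can be read, corresponds to 0.106 to 0.158 CPM (counts scaled to library size), for counting error only. The targeted gene *Bdh2* had 203, 193 and 209 counts in the WT and 164, 136 and 129 in the knockout libraries (log2 fold change -0.79, adjusted p = 2.46e-04), and reads from an allele with a small deletion can still be counted. Summed transcripts of 10 pluripotent cell markers reached 4996 to 5276 CPM in WT and 5605 to 5657 CPM in knockout ASCs, with all 10 detected. In the test described below, 6 of the 10 were called higher and 0 lower. Libraries of one genotype stood apart in 20 hepatocyte transcripts, whose sum was 599.9, 369.7 and 56.7 CPM in WT libraries 1, 2 and 3 and 46.8, 173.5 and 33.0 CPM in knockout libraries 1, 2 and 3. Hence called members whose value moved by more than 1.5 times, and members whose call changed, are also given for the 3 libraries with the lowest sums (WT library 3, knockout libraries 1 and 3), a choice made after seeing the data, in which the lone WT library is assumed to vary like the knockout libraries.

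Of the 52 genes, 48 had enough counts to be tested in edgeR (quasi-likelihood test), where p-values were adjusted by Benjamini-Hochberg over 16758 genes and called at 0.05. Among the 48, 19 rose and 11 fell in *Bdh2*-knockout ASCs, while 18 did not pass the test. Over all genes tested, 41.7% passed (21% higher and 20.8% lower), so that 19 of 48, or 39.6%, higher members stand beside 21% and 11 of 48, or 22.9%, lower members beside 20.8%. In 21 of the 48 every knockout library lay above every WT library and in 10 below, which was the case for 26.3% and 26.1% of all genes tested. The median log2 fold change of the 48 was 0.09, against -0.01 for all genes tested. The all-gene shares, 21% higher and 20.8% lower, also stand beside the counts of every class and marker list given here. The 52 genes and the lists were chosen with earlier results of these data known, so these comparisons are descriptive. Changes of at least 2-fold were less common: *Col4a1*, *Col4a2*, *Lama1* and *Lama3* were higher by that much (2.05% of all genes were) and *Vtn* was lower (3.23% of all genes were). Without TMM scaling, on library totals alone, 17 members were higher and 15 lower, and 38.0% of all called genes were higher in place of 50.3%.

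**Figure D1:**
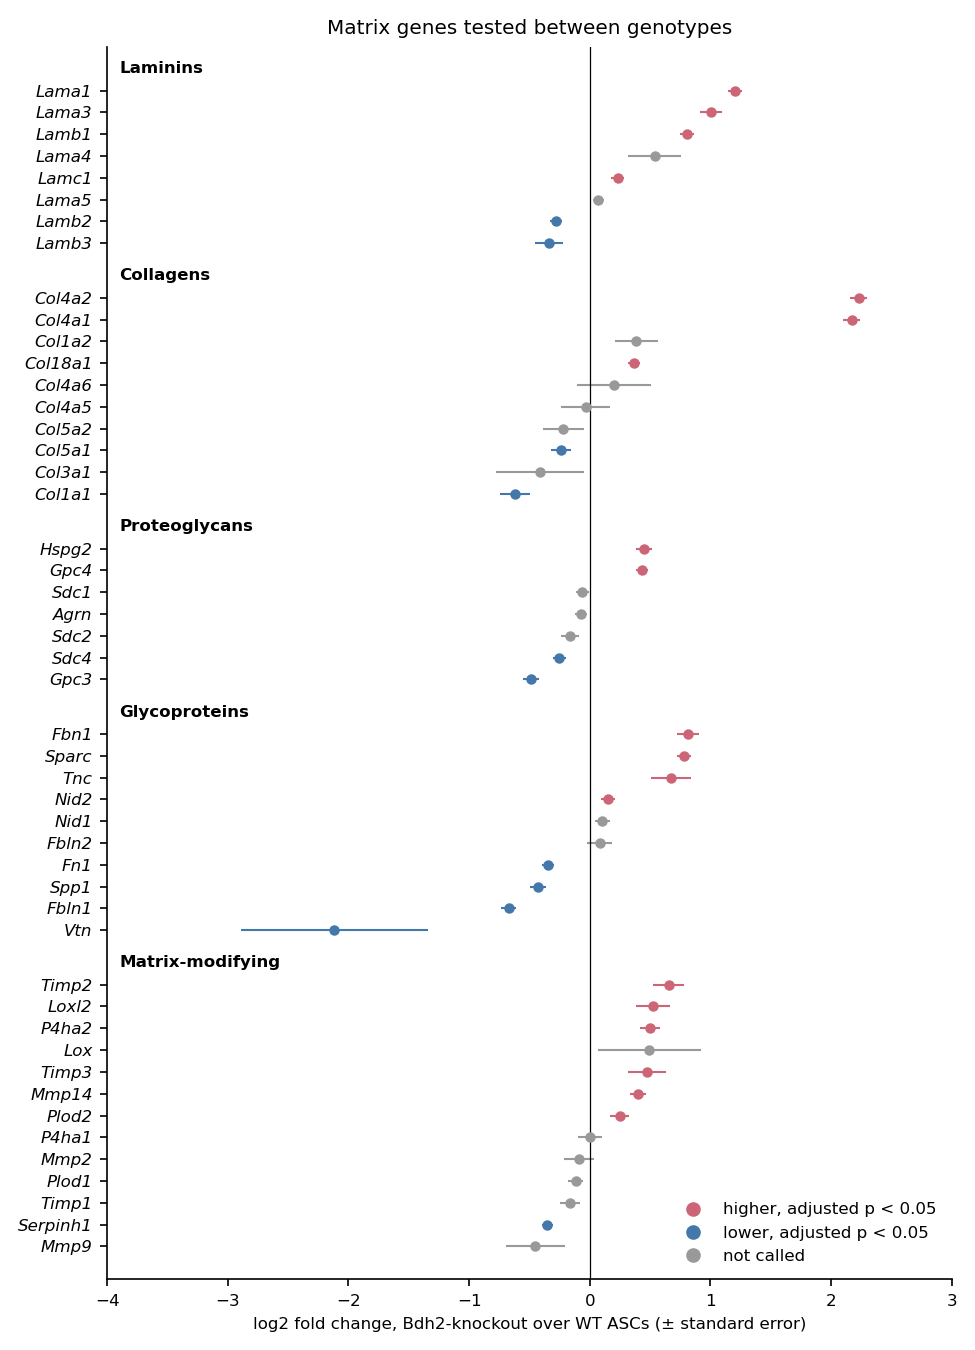
Log2 fold change (*Bdh2*-knockout over WT ASCs, horizontal axis) of the 48 tested matrix genes, grouped by role, with bars of 1 standard error and colours for genes higher, lower or not called. *Col4a1* and *Col4a2* lie farthest to the right at 2.17 and 2.23, and *Vtn*, with the widest bar, lies farthest to the left at -2.12.

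Type IV collagen showed the largest increase. Both common chains, alpha1 and alpha2, rose more than 4-fold in *Bdh2*-knockout ASCs, from levels that were modest in WT ASCs. *Col4a1* (ENSMUSG00000031502, GRCm38 chr8:11198423-11312826, minus strand) was at 37.2, 43.3 and 40.4 normalised CPM in the WT libraries and at 168, 191 and 186 CPM in the knockout libraries. The mean rose from 40.3 ± 3.03 to 181 ± 12.03 CPM (SD, n = 3), or by 2.17 on the log2 scale with a standard error of 0.07 (adjusted p = 3.67e-10, edgeR). *Col4a2* (ENSMUSG00000031503, chr8:11312805-11449287, plus strand) was at 18.9, 22.3 and 19.6 CPM in WT and at 89.1, 100.3 and 95.7 CPM in knockout ASCs. Its log2 fold change was 2.23 with a standard error of 0.07 (adjusted p = 3.67e-10, edgeR). In both genes the lowest knockout library was more than 3-fold above the highest WT library.

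Both genes lie head to head, and in the GENCODE annotation their first exons overlap on opposite strands. The shared stretch is short, and is printed because both genes begin in it. It is given on the plus strand (GRCm38.p6, chr8:11312805-11312826), with a GC box, the letters GGGCGG, in capitals.
Col4a2 and Col4a1 shared first bases: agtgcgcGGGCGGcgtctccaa
This stretch is 22 of 7464 exon bases of *Col4a1*, so reads that cannot be assigned there are few. Per length (FPKM, fragments per kilobase of the listed gene length, scaled to library size), the ratio of *Col4a1* to *Col4a2* was 1.75, 1.72 and 1.83 in WT and 1.67, 1.69 and 1.72 in knockout ASCs. The means were 1.77 ± 0.0590 and 1.69 ± 0.0262 (SD, n = 3; difference -0.0744, p = 0.2 by a two-sided exact permutation test that cannot go below 0.1), and the ranges of the genotypes overlapped narrowly. With 3 libraries of each genotype this test cannot reach 0.05.

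The other 4 chains of type IV collagen, which form trimers of specialised basement membranes such as those of kidney and lung, were scarce. *Col4a5* was at 1.91, 2.23 and 2.69 CPM in WT and 2.40, 2.38 and 1.92 CPM in knockout ASCs (log2 fold change -0.03, 95% interval -0.47 to 0.40). *Col4a6* was at 1.19, 0.644 and 0.712 CPM in WT and 1.02, 0.880 and 1.00 CPM in knockout ASCs. These genes also form a head-to-head pair, on the X chromosome with 1308 bases between them, and neither passed the test. *Col4a3* had 0, 1 and 0 counts in WT and 1, 2 and 1 in knockout libraries, and *Col4a4* had 6, 6 and 4 counts in WT and 1, 6 and 0 in knockout libraries. Both were too low to be tested. The 6 chains together rose from 8.93 ± 0.663 to 39.1 ± 2.44 FPKM (SD, n = 3), of which *Col4a1* made up 60.4% in WT and 62.1% in knockout ASCs and *Col4a2* 34.3% and 36.7%.

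Laminin chains moved in both directions. Of 8 tested chains, *Lama1*, *Lama3*, *Lamb1* and *Lamc1* rose, *Lamb2* and *Lamb3* fell, and *Lama4* and *Lama5* did not pass the test. Thus 50% were higher and 25% lower, beside 21% and 20.8% of all genes. *Lama1* (ENSMUSG00000032796, chr17:67697259-67822647, plus strand), the alpha chain of laminin-111 of the early embryo, was at 70.7, 70.2 and 71.8 CPM in WT and at 151, 172 and 168 CPM in knockout ASCs. It rose 2.31-fold (log2 fold change 1.21, standard error 0.06, adjusted p = 1.70e-08, edgeR) and the WT libraries lay close together. *Lamb1* (ENSMUSG00000002900, chr12:31265234-31329644, plus strand), the beta chain of the same trimer, was at 108, 121 and 119 CPM in WT and at 197, 215 and 198 CPM in knockout ASCs (1.75-fold, log2 fold change 0.81, adjusted p = 5.04e-07). *Lamc1* (ENSMUSG00000026478, chr1:153218922-153332786, minus strand), the gamma chain shared by most laminins, was already abundant, at 398, 434 and 443 CPM in WT and 490, 523 and 485 CPM in knockout ASCs. It rose 1.17-fold (log2 fold change 0.23, adjusted p = 3.64e-03), and in the 3 libraries with the lowest hepatocyte sums the log2 fold change was 0.14. The 3 chains of laminin-111 were thus all higher, by unequal factors, and in none of them did the genotypes overlap.

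*Lama5* (ENSMUSG00000015647, chr2:180176373-180225859, minus strand), the alpha chain of laminin-511 and laminin-521, on which pluripotent cells adhere, was the most abundant alpha chain. It was at 491, 515 and 519 CPM in WT and at 520, 545 and 536 CPM in knockout ASCs, a log2 fold change of 0.07 (95% interval -0.03 to 0.17, adjusted p = 0.229, edgeR). The knockout libraries lay just above the WT libraries, and the interval allows no rise above 0.17 on the log2 scale. *Lama3* (ENSMUSG00000024421, chr18:12333819-12583013, plus strand), an alpha chain of epithelial laminin, was scarce at 7.57, 6.89 and 7.40 CPM in WT and rose to 14.1, 15.5 and 14.2 CPM (log2 fold change 1.00, adjusted p = 3.17e-06). *Lama4*, a chain of vessels and muscle, was at 1.19 to 2.08 CPM in WT and 2.36 to 2.57 CPM in knockout ASCs (log2 fold change 0.54, adjusted p = 0.0660) and passed the test without WT library 2 (0.70) and with a mean count of at least 50 (0.53), while its value was 0.35 without WT library 1. *Lama2*, the muscle chain, had 2 to 5 counts in every library and was not tested.

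Among beta chains, *Lamb2*, the beta chain of laminin-521, fell from 67.5 ± 2.12 to 55.6 ± 1.53 CPM (log2 fold change -0.28, adjusted p = 7.76e-04). *Lamb3*, the partner of *Lama3* in laminin-332, was at 6.49 to 7.08 CPM in WT and 5.13 to 5.66 CPM in knockout ASCs (log2 fold change -0.34, adjusted p = 0.0313). The call for *Lamb3* was lost when any library except WT library 2 was left out, with log2 fold changes of -0.29 to -0.36, with DESeq2 (-0.32), and in the 3 libraries with the lowest hepatocyte sums (-0.39).

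These changes altered the make-up of each chain family per length. *Lama1* was 14.5%, 13.8% and 14.0% of *Lama1* plus *Lama5* in WT and 25.4%, 27.1% and 26.9% in knockout ASCs. The mean share rose by 12.4 percentage points, from 14.1% ± 0.350 to 26.5% ± 0.911 (SD, n = 3), which in a two-sided exact permutation test is p = 0.1 and cannot be lower with 3 against 3, and the genotypes did not overlap. *Lama5* kept the larger part of all alpha chains, 84.5% in WT and 71.8% in knockout ASCs. Within the beta chains, *Lamb1* and *Lamb2* were nearly equal in WT ASCs, at 49.1% ± 0.885 and 46.5% ± 0.574, and stood at 67.3% ± 1.39 and 30.0% ± 1.28 in knockout ASCs. The sum of the alpha chains was 52.8 ± 1.38 FPKM in WT and 65.3 ± 2.36 FPKM in knockout ASCs, and that of the beta chains was 23.8 ± 1.02 and 30.5 ± 0.995 FPKM.

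**Figure D2:**
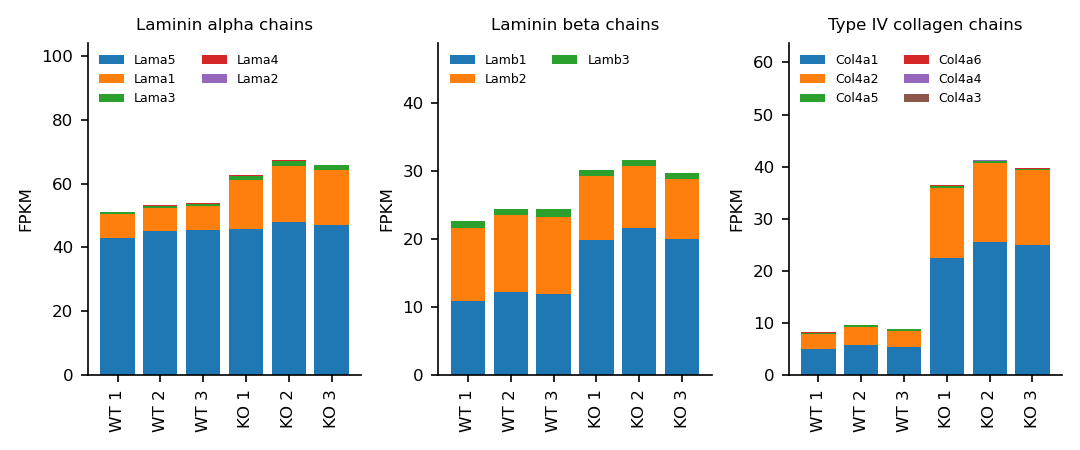
Stacked FPKM (vertical axis, 0-based) of laminin alpha chains, laminin beta chains and type IV collagen chains in each of the 6 libraries, with 1 colour per chain. The *Lama1* segment grows on a nearly level *Lama5* segment (44.6 and 46.9 FPKM), *Lamb1* grows while *Lamb2* shrinks, and the type IV collagen bars rise from 8.29 to 9.62 FPKM in WT to 36.4 to 41.2 FPKM in knockout libraries.

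**Figure D3:**
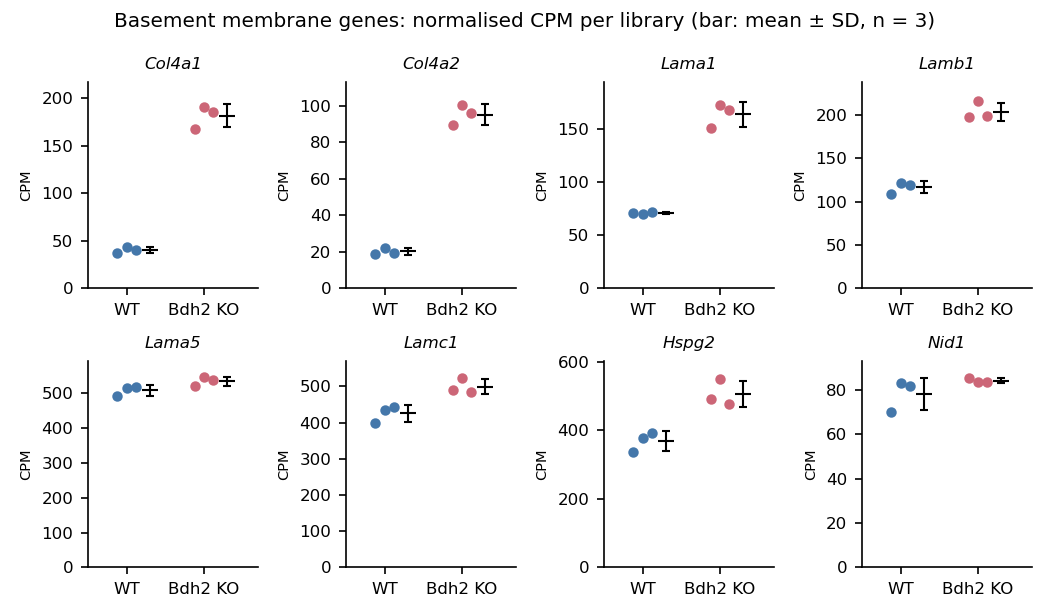
Normalised CPM (vertical axis, 0-based and scaled per gene) of 8 basement membrane genes in WT and *Bdh2*-knockout (Bdh2 KO) ASCs, with 1 point per library and the mean ± SD of 3 beside them. Knockout points lie above all WT points in every panel, by a wide margin for *Col4a1*, *Col4a2*, *Lama1* and *Lamb1* and by a narrow one for *Lama5* and *Nid1*, which did not pass the test.

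The genes that link the networks gave smaller changes than the type IV collagen pair, *Lama1*, *Lama3* and *Lamb1*. *Hspg2* (ENSMUSG00000028763, chr4:137468769-137570630, plus strand) encodes perlecan and was at 336, 378 and 393 CPM in WT and at 492, 548 and 476 CPM in knockout ASCs. It rose 1.37-fold (log2 fold change 0.45, standard error 0.07, adjusted p = 1.54e-04, edgeR), and by 0.30 in the 3 libraries with the lowest hepatocyte sums. *Nid1* (ENSMUSG00000005397, chr13:13437551-13512269, plus strand), which encodes nidogen-1, was at 70.1, 82.9 and 81.7 CPM in WT and at 85.6, 83.5 and 83.4 CPM in knockout ASCs. Its log2 fold change was 0.10 with a 95% interval of -0.03 to 0.24 (adjusted p = 0.202), and WT library 1 lay below the other 5. *Nid2*, which encodes nidogen-2, was among the most abundant members at 110 ± 8.38 FPKM in WT, with a rank of 435 of 16758 tested genes, and at 122 ± 4.26 FPKM in knockout ASCs. Its log2 fold change of 0.15 just passed the test (adjusted p = 0.0476). It fell short without WT library 1 (0.09), without knockout library 1 (0.16) or 3 (0.14), on library totals (0.09) and with a mean count of at least 50 (0.14). On the opposite strand, 8.45% of its exon bases overlap *Rtraf*. *Agrn*, for agrin, was at 407 to 411 CPM in WT and 377 to 414 CPM in knockout ASCs (log2 fold change -0.07, 95% interval -0.18 to 0.04), and in the 3 libraries with the lowest hepatocyte sums it was called lower (-0.12).

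*Col18a1*, whose product is a basement membrane collagen that carries heparan sulfate, rose from 314 ± 6.69 to 404 ± 22.6 CPM (log2 fold change 0.37, adjusted p = 1.08e-04). *Sparc* (ENSMUSG00000018593, chr11:55394500-55423183, minus strand) encodes a collagen-binding protein that parietal endoderm makes in quantity. It was at 118, 135 and 129 CPM in WT and at 219, 228 and 209 CPM in knockout ASCs, and its groups were far apart (1.72-fold, log2 fold change 0.78, adjusted p = 7.29e-07). Its relative *Sparcl1* had 2 to 5 counts in WT and 0 to 2 in knockout libraries and was not tested.

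Markers of extraembryonic endoderm moved with these genes. Of 12 primitive endoderm markers, 11 rose (91.7%, beside 21% of all genes) and *Hnf4a* fell. The summed level of the 12 was 28.7 to 33.9 CPM in WT and 115.5 to 136.1 CPM in knockout ASCs. *Gata4* rose from 5.65 to 21.0 CPM and *Sox17* from 1.28 to 10.3 CPM, and 0 of the 12 were undetected in either genotype. Of 8 parietal endoderm markers, 3 rose (*Pth1r*, *Fst* and *Stra6*) and 5 did not pass the test, with sums of 177 to 213 CPM in WT and 243 to 261 CPM in knockout ASCs. Most of that sum was *Vim* (means of 167 and 185 CPM), which many cell types express and which did not pass the test. Their part in the collagen and laminin results was not tested. More cells of a type and more RNA per cell cannot be told apart in bulk RNA. Of 10 endothelial markers, 7 could be tested, of which *Kdr* (from 0.771 to 2.60 CPM) and *Esam* (from 0.908 to 3.63 CPM) rose, *Pecam1* and *Egfl7* fell and 3 did not pass the test. Their summed level was 92.7 to 102.6 CPM in WT and 76.7 to 79.8 CPM in knockout ASCs, and most of it was *Pecam1*, with means of 65.8 and 45.3 CPM. *Emcn* was at or under 3 counts in every library.

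The fibrillar collagen chains among the members were called lower or did not pass the test, and their difference from type IV collagen was not tested. Outside the members, the fibrillar chain *Col27a1* was called higher (log2 fold change 0.69, adjusted p = 4.30e-04, edgeR). *Col2a1*, *Col5a3*, *Col11a1* and *Col11a2* did not pass the test, and *Col24a1* was too low to be tested. *Col1a1*, a chain of type I collagen, fell from 17.3 ± 3.02 to 11.3 ± 1.33 CPM (log2 fold change -0.62, adjusted p = 1.30e-03), with libraries of 14.0, 19.9 and 18.1 CPM in WT and 10.8, 12.8 and 10.2 CPM in knockout ASCs. *Col1a2*, the partner chain, was at 3.27 ± 0.131 CPM in WT and 4.28 ± 0.964 CPM in knockout ASCs (log2 fold change 0.39, adjusted p = 0.0932). These chains form 1 trimer in connective tissue, and per length they stood at 2.63 and 0.263 FPKM in WT ASCs. *Col5a1*, for a minor chain of the same fibrils, was at -0.24 on the log2 scale (adjusted p = 0.0376), and its groups overlapped. Its call was lost without WT library 2 (-0.15) or 3 (-0.24), without knockout library 1 (-0.25), 2 (-0.26) or 3 (-0.18), and with DESeq2 (-0.23). *Col5a2* and *Col3a1* did not pass the test, and *Col3a1* was under 1.3 CPM in every library. Of 16 fibroblast markers, 8 could be tested, 1 fell (*Pdgfrb*) and 4 were at or under 3 counts in every library, with *Fap* at 0, and the sum was 29.6 to 30.8 CPM in WT and 27.6 to 30.7 CPM in knockout ASCs.

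The cell surface proteoglycans divided by gene. *Gpc3* and *Gpc4*, which encode glypicans anchored to the membrane by lipid, are neighbours on the X chromosome on the same strand, 107173 bases apart. *Gpc3* was at 72.0, 84.5 and 75.2 CPM in WT and at 55.6, 51.5 and 58.4 CPM in knockout ASCs (log2 fold change -0.48, adjusted p = 1.07e-04). *Gpc4* was at 36.6, 37.9 and 38.2 CPM in WT and at 50.4, 52.2 and 49.3 CPM in knockout ASCs (log2 fold change 0.43, adjusted p = 2.98e-05). The neighbours thus moved in opposite directions, and per length they stood at 28.7 and 14.2 FPKM in WT and at 20.5 and 19.1 FPKM in knockout ASCs. Of the syndecans, which span the membrane, *Sdc4* fell from 97.5 ± 3.83 to 81.8 ± 2.70 CPM (log2 fold change -0.25, adjusted p = 2.01e-03). *Sdc1* (-0.06) and *Sdc2* (-0.16, 95% interval -0.32 to 0.00) did not pass the test. Among the 7 proteoglycans, 2 rose, 2 fell and 3 were not called (28.6% higher and 28.6% lower, beside 21% and 20.8% of all genes).

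Of 10 tested glycoproteins, 4 rose, 4 fell and 2 did not pass the test (40% higher and 40% lower, beside 21% and 20.8% of all genes). *Fn1* (ENSMUSG00000026193, chr1:71585520-71653200, minus strand) encodes fibronectin, an adhesive protein bound by integrins, and its transcript was among the most abundant of the 52. It was at 1473, 1603 and 1609 CPM in WT and at 1219, 1268 and 1195 CPM in knockout ASCs, so that knockout libraries had 21.4% less (log2 fold change -0.35, standard error 0.05, adjusted p = 9.61e-05, edgeR). In the 3 libraries with the lowest hepatocyte sums its log2 fold change was -0.42. *Spp1*, for osteopontin, was the most abundant member per length in WT ASCs at 176 ± 17.1 FPKM and fell to 130.5 ± 6.74 FPKM (log2 fold change -0.43, adjusted p = 2.85e-04), and in those 3 libraries it still passed the test at -0.22. *Gm42793*, on the same strand, shares 18.8% of the exon bases of *Spp1*. *Fbln1*, for fibulin-1, which binds basement membranes and elastic fibres, was at 72.8, 75.1 and 76.1 CPM in WT and at 43.6, 51.1 and 45.9 CPM in knockout ASCs (log2 fold change -0.67, adjusted p = 3.24e-06). *Fbln2* was at 8.45 to 9.96 CPM in WT and 8.81 to 10.3 CPM in knockout ASCs and did not pass the test (log2 fold change 0.08). *Fbn1*, for fibrillin-1, rose from 8.90 ± 0.721 to 15.7 ± 0.918 CPM (log2 fold change 0.81, adjusted p = 1.87e-05) and *Tnc*, for tenascin-C, from 4.24 ± 0.905 to 6.78 ± 1.04 CPM (log2 fold change 0.68, adjusted p = 5.48e-03). For *Fbn1*, 20.1% of exon bases are overlapped by *Gm9913* on the opposite strand, and whether counting used strand is not stated.

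**Figure D4:**
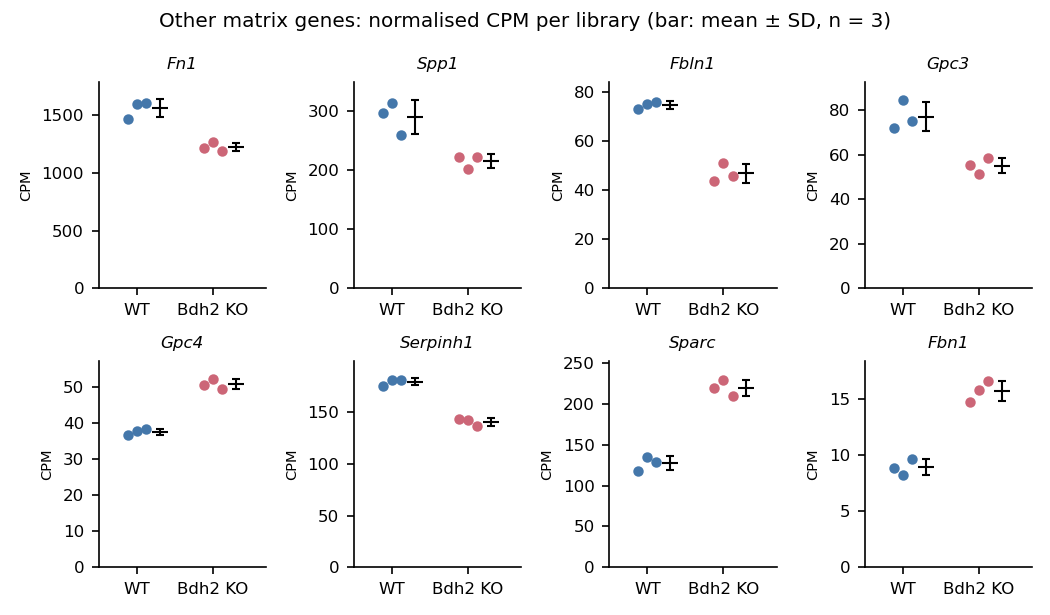
Normalised CPM (vertical axis, 0-based and scaled per gene) of 8 further matrix genes in WT and *Bdh2*-knockout (Bdh2 KO) ASCs, with 1 point per library and the mean ± SD of 3. Knockout points lie below all WT points for *Fn1*, *Spp1*, *Fbln1*, *Gpc3* and *Serpinh1* and above them for *Gpc4*, *Sparc* and *Fbn1*.

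*Vtn* (ENSMUSG00000017344, chr11:78499091-78502324, plus strand) encodes vitronectin, an adhesive plasma protein made mainly by the liver. It was the member with the largest decrease, and also the one whose value rested on single libraries. It was at 11.5, 6.64 and 0.673 CPM in WT libraries 1, 2 and 3 and at 0.690, 3.26 and 0.209 CPM in knockout libraries 1, 2 and 3, and the genotypes overlapped. The log2 fold change was -2.12 with a standard error of 0.77 (adjusted p = 0.0419, edgeR). *Alb*, for serum albumin, was at 331, 197 and 22.0 CPM and at 17.3, 88.3 and 8.68 CPM in the same libraries, and both genes ranked the 6 libraries alike except for WT library 3 and knockout library 1, which changed places. With the sum of log2(CPM + 1) over the 20 hepatocyte transcripts as a covariate, the log2 fold change of *Vtn* was 0.50 and not called. In the 3 libraries with the lowest CPM sums it was -0.54 and not called. The call was also lost without WT library 1 (-1.33) or 2 (-2.07), without knockout library 1 (-1.77) or 3 (-1.63), with DESeq2 (-2.15) and with limma-voom (-1.96), and without knockout library 2 the value was -3.72. Of the 20 hepatocyte markers, 17 were lower in knockout ASCs, and 0 of the 20 separated the genotypes without overlap.

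**Figure D5:**
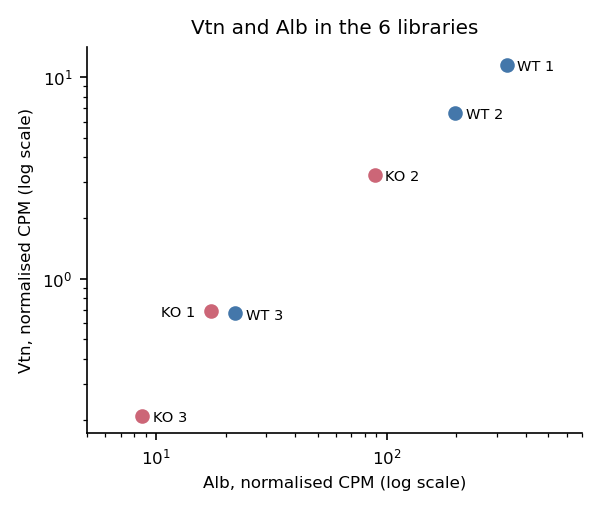
Normalised CPM of *Vtn* (vertical, log scale) against *Alb* (horizontal, log scale) in the 3 WT and 3 *Bdh2*-knockout (KO) libraries, with 1 labelled point per library. The points of both genotypes lie along 1 rising band, from KO 3 (8.68 and 0.209 CPM) to WT 1 (331 and 11.5 CPM), with WT 3 next to KO 1.

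The matrix-modifying genes mostly rose or did not pass the test, with 6 of 13 higher, 1 lower and 6 not called. Thus 46.2% were higher and 7.69% lower, beside 21% and 20.8% of all genes. *Serpinh1* (ENSMUSG00000070436, chr7:99345376-99353239, minus strand), which encodes the collagen chaperone HSP47, was the one that fell. It was at 175, 181 and 181 CPM in WT and at 143, 142 and 136 CPM in knockout ASCs, 21.6% lower, with both groups tight (log2 fold change -0.35, standard error 0.05, adjusted p = 8.99e-05, edgeR). The chaperone was thus lower in libraries in which *Col4a1* and *Col4a2* were more than 4-fold higher. Prolyl 4-hydroxylases add the hydroxyl groups that hold the collagen triple helix together. Of their catalytic subunits *P4ha2* rose from 21.3 ± 2.63 to 30.1 ± 1.59 CPM (log2 fold change 0.50, adjusted p = 3.56e-04). *P4ha1* was at 58.6, 82.1 and 65.8 CPM in WT and at 74.4, 61.5 and 71.0 CPM in knockout ASCs, with overlapping groups and a log2 fold change of 0.00 (95% interval -0.22 to 0.22).

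Of the lysyl hydroxylases, *Plod1* did not pass the test (log2 fold change -0.12) and *Plod2* was called higher by 0.25 (adjusted p = 0.0208) though its groups overlapped. The call for *Plod2* was lost without WT library 1 (0.21) or 3 (0.20), without knockout library 1 (0.24) or 3 (0.21), and on library totals (0.19), and the value was 0.41 in the 3 libraries with the lowest hepatocyte sums. Among the cross-linking oxidases, *Loxl2* was at 18.0, 24.7 and 19.7 CPM in WT and at 36.3, 23.0 and 30.3 CPM in knockout ASCs (log2 fold change 0.52, adjusted p = 0.0101), with knockout library 2 inside the WT range, and it missed the threshold with DESeq2 (0.54). *Lox* was under 1 CPM in every library. *Mmp14*, a membrane-bound metalloproteinase, rose from 31.7 ± 1.36 to 41.8 ± 2.88 CPM (log2 fold change 0.40, adjusted p = 2.81e-04), while the gelatinases *Mmp2* (-0.09) and *Mmp9* (-0.45) did not pass the test. In the 3 libraries with the lowest hepatocyte sums, *Mmp2* (-0.39) and *Mmp9* (-0.86) were called lower.

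The tissue inhibitors of metalloproteinases differed among themselves. *Timp2* rose from 4.41 ± 0.573 to 6.92 ± 0.214 CPM (log2 fold change 0.65, adjusted p = 1.37e-03). *Timp3*, which binds to the matrix, was at 3.86, 6.04 and 5.07 CPM in WT and at 6.75, 6.38 and 7.76 CPM in knockout ASCs (log2 fold change 0.48, adjusted p = 0.0252). Its call was lost without WT library 1 (0.33) or knockout library 3 (0.41), and 21.3% of its exon bases are overlapped by *Syn3* on the opposite strand. *Timp1*, which did not pass the test (log2 fold change -0.16), made up 93.5% of the 3 inhibitors per length in WT and 89.5% in knockout ASCs.

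The promoters of these genes were read from RefSeq windows of GRCm38.p6 that run from 250 bases before to 50 after the start, which matched 36 of the 52 genes. Where a member had several windows, that with the start nearest the listed start was taken. For all genes it was the window with the lowest coordinate. The shares of members and of all windows thus rest on unlike choices and are not strictly comparable. The RefSeq start used was farthest from the start listed in the count table for *Lamb3* (94295 bases), *Sparc* (3103), *Lama2* (2816) and *Fbn1* (1555), and these windows are included in the counts. The letters GGGCGG of a GC box, on either strand, occurred in 28 of the 36 windows (77.8%) and in 35.6% of all 27025 windows. The letters of a GATA site, which are AGATAA or else TGATAA with A at the end, or else AGATAG and likewise TGATAG with G at the end, occurred on either strand in 4 of the 36 (*Col3a1*, *Col4a6*, *Fbln2* and *Sdc4*, or 11.1%) and in 30.3% of all windows. A GC box was present in 12 of 13 windows of members that were higher, in 11 of 12 of members not called and in 4 of 9 of members that were lower, and a GATA site in 0, 3 and 1 of them. The letters CCAAT, on either strand, occurred in 36.1% of the members' windows and 37.8% of all, and TATAAA in 16.7% and 14.1%. None of these letter strings contains another. The members' windows had a median of 63.3% G and C, against 52.7% for all windows, and the letters differ in base composition.

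Stretches upstream of 3 members are printed because they differ in direction and in motifs. *Lamb1* rose, *Lama5* did not pass the test and *Fbln1* fell. Each stretch ends at the base before the first annotated exon base and is written 5′ to 3′ on the strand of its gene, with GC boxes (either strand) and CCAAT in capitals. That of *Lamb1* is chr12:31265043-31265233 on the plus strand, that of *Lama5* is chr2:180225860-180226109 on the minus strand, and that of *Fbln1* is chr15:85205699-85205948 on the plus strand.
Lamb1: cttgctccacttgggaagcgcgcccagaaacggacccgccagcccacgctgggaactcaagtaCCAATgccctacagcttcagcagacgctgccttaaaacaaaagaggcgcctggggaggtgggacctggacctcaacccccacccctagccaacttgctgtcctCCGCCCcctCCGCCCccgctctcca
Lama5: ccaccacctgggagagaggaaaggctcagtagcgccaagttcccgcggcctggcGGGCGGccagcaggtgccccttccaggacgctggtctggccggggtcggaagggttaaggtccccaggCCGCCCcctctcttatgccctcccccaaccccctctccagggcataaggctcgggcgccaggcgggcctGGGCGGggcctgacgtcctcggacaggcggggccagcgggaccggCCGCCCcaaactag
Fbln1: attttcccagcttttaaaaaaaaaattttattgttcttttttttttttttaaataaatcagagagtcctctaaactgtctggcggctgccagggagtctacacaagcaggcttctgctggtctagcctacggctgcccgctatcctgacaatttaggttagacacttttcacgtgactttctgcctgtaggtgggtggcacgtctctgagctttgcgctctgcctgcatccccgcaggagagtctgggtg
The *Lamb1* stretch holds 2 GC boxes and 1 CCAAT, that of *Lama5* 4 GC boxes, and that of *Fbln1*, with a run of T near its start, none of the 4 motifs. Upstream stretches of other members that fell did hold motifs, with 3 GC boxes and 1 CCAAT for *Gpc3* and 1 GC box for *Serpinh1*. A link of motif to direction was not tested.

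Other genes of the same biology were read from lists of 188 genes, of which 149 could be tested. The lists were chosen with earlier results of these data known, so their shares are descriptive. Of the 149, 42 (28.2%) rose and 19 (12.8%) fell, beside 21% and 20.8% of all genes. Among 25 tested genes of collagen processing and export, 7 rose (28%) and 3 fell (12%). *P3h2*, a prolyl 3-hydroxylase that acts on type IV collagen, rose from 0.502 ± 0.100 to 2.77 ± 0.168 CPM (log2 fold change 2.47, adjusted p = 7.23e-06), *Tll1*, a procollagen C-proteinase, from 1.03 to 1.85 CPM (0.84), and *Sec24d*, of the vesicle coat that carries procollagen, from 22.3 to 30.4 CPM (0.44). *Fkbp14*, a collagen-binding isomerase (-0.69), *Adamts14*, a procollagen protease (-0.67), and *Sec23a*, also of the coat (-0.22), fell.

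Receptors showed increases in 8 of 18 tested genes (44.4%) and a decrease in 1 (5.56%), beside 21% and 20.8% of all genes. *Itga8*, whose integrin binds nephronectin and fibronectin, rose from 1.63 to 4.66 CPM, *Itgb4*, of the laminin-332 receptor, from 12.2 to 22.3 CPM (log2 fold change 0.87), and *Itga1*, of a collagen receptor, from 4.07 to 7.04 CPM (0.80). *Itgb1*, the partner chain of most matrix integrins, was the 1 that fell, from 229.9 ± 21.8 to 204 ± 8.28 CPM (-0.17, adjusted p = 0.0444). Among 19 other basement membrane genes, 7 rose, among them *Tinagl1* (0.86), *Fras1* (0.67) and *Npnt* (0.51), the last of which encodes the *Itga8* ligand nephronectin, and 2 fell, among them *Frem2* (-0.21). These were 36.8% and 10.5% of the 19.

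Of 22 tested heparan sulfate enzymes, 5 rose and 5 fell (22.7% each), near the 21% and 20.8% of all genes. *Hs3st1*, a 3-O-sulfotransferase, rose from 0.965 to 3.97 CPM (log2 fold change 2.04), whereas *Hs3st3b1*, of the same family, fell from 10.2 to 4.69 CPM (-1.12) and *Extl1*, a chain-elongating enzyme, from 10.4 to 4.03 CPM (-1.37). *Xylt1*, which starts the sugar chain (0.49), and *Hs2st1*, a 2-O-sulfotransferase (0.28), also rose, and *Glce*, the glucuronic acid epimerase (-0.34), fell. Among 13 other proteoglycans, 3 rose and 3 fell (23.1% each), also near those shares. *Srgn*, for the intracellular proteoglycan serglycin, rose from 0.437 ± 0.324 to 7.48 ± 0.388 CPM (4.14, adjusted p = 4.42e-07), and *Ncan*, for neurocan, rose by 0.42, while the glypican gene *Gpc2* (-0.58) and *Spock2*, for a testican (-0.40), fell. Among 24 other collagens, 5 rose, among them *Col8a1* (1.61), *Col6a5* (0.81) and *Col27a1* (0.69), and 3 fell, *Col13a1* (-1.18), *Col26a1* (-1.02) and *Col9a3* (-0.54). Of these 24, 20.8% were higher, near the 21% of all genes, and 12.5% lower, beside 20.8%. Of 28 other proteases and inhibitors, 7 rose (25%) and 2 fell (7.14%), beside 21% and 20.8% of all genes. Increases of more than 2-fold were seen in 4 of them, *Mmp25* (1.57), *Adamts8* (1.24), *Htra1* (1.14) and *Adamts1* (from 5.44 to 11.5 CPM, named after its value was seen), and *Adamts4* (-0.46) and *Mmp11* (-0.22) fell.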

How the data were processed

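RNA of 3 WT ASC and 3 *Bdh2*-knockout ASC libraries was sequenced. The labels name Trizol and a TruSeq kit, the study's methods another extraction kit. Per the study's methods, the authors trimmed adaptors, discarded a read when over 20% of its bases were of low quality, aligned to GRCm38 using HISAT2 (2.0.5 in the submitters' processing notes) and assigned reads by featureCounts. They deposited raw counts for 54715 genes with a length and position each. The strand setting, the annotation release and the treatment of reads with several matches are not given in the sources used here, and near-identical copies or overlapping genes could share reads. The FPKM values in the text were computed here from the deposited counts, TMM library sizes and listed lengths.

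Tests were made by edgeR 4.0.16 under R 4.3.3 (TMM, filterByExpr, glmQLFit, glmQLFTest, genotype alone, two-sided, Benjamini-Hochberg adjustment over 16758 genes). CPM values are TMM-normalised. Adjusted p-values are from this test, and 95% intervals of a log2 fold change from its standard error. Alternatives were DESeq2 1.42.0, the authors' tool, limma-voom 3.58.1, other scalings and filters, a test against a fold change of 1.2, the replicate number as a block, a hepatocyte covariate and leaving out each library. Single values were compared with exact permutation tests. On simulated counts for all 16758 genes, edgeR recovered 73 of 100 genes changed by 1 on the log2 scale and 99 of 100 changed by 2, with 19 false calls. No other genes were changed there, whereas 6996 were called in the data, so these rates need not hold for this comparison. Libraries held 18927748 to 28333541 counts. Samples were grouped by the genotype labels, and no 2 libraries of a genotype agreed within sampling noise (chi-square per gene of 3.83 to 8.82).

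The 52 genes and all lists were chosen with earlier results of these data known. Called genes with an absolute log2 change of 1 or more, and 11 genes named whatever their values, were described in full, members with a mean count under 10 by counts only, and pathway genes by the 3 largest called changes in each direction at a mean of at least 1 CPM. Exon overlaps were taken from GENCODE M21 and promoters from RefSeq, both on GRCm38.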

Additional observations from a re-analysis of the deposited data

How the results depend on the processing

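The 48 tested members were recomputed under 16 alternatives, except that *Col4a6*, *Col3a1* and *Lox* did not reach a mean count of 50 and have 15. Of the 765 values for members, 687 kept their direction and their side of the threshold, 55 were no longer called, 9 became called and 14 changed sign. Against a fold change of 1.2 in place of any change, 2457 genes were called in place of 6996, and 13 members were higher and 4 lower in place of 19 and 11. The calls for *Lamb2*, *Lamc1*, *Col18a1*, *Sdc4*, *Fn1* and *Serpinh1* were lost in that test and in no other. DESeq2 gave 18 and 8 members, limma-voom 19 and 10, no filter on low counts 19 and 10, and the hepatocyte covariate 15 and 8. Over all genes, 5699 were called with DESeq2, 6898 with limma-voom, 7314 without the filter and 5186 with the covariate, in place of 6996. Under the covariate the calls for *Nid2*, *Plod2*, *Loxl2*, *Timp3*, *Lamb3*, *Col5a1* and *Vtn* were lost. In the 3 libraries with the lowest hepatocyte sums 19 members were higher and 12 lower, *Lamb3* and *Vtn* were not called, and *Agrn*, *Mmp2* and *Mmp9* were called lower. Members called in neither setting moved by more than 1.5 times in these libraries for *Lama5* (0.02), *Nid1* (0.05), *Col4a5* (-0.31), *Col4a6* (0.50), *Col1a2* (0.13), *Sdc1* (-0.09), *Fbln2* (0.02), *Timp1* (-0.04), *P4ha1* (0.14) and, with a change of sign, *Col3a1*. With a library left out, 16 to 20 members were higher and 8 to 9 lower, while 5613 to 7409 of all genes were called.

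Signs changed only for *Vtn* and for members that had not passed the test. *Vtn* was at 0.50 with the hepatocyte covariate. *Col3a1* was at 0.0451 with that covariate and at 0.42 in the 3 libraries with the lowest hepatocyte sums. *P4ha1* was at -0.0549 on library totals, -0.0094 with a mean count of at least 50 and -0.0608 with the covariate, and ranged from -0.10 to 0.15 with a library left out. *Col4a5* ranged from -0.14 to 0.12 and *Mmp2* from -0.207 to 0.0195 with a library left out. The cause of these changes was not tested.

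With the replicate number as a block, 6452 genes were called, with 18 members higher and 10 lower, and the calls for *Lamb3* and *Nid2* were lost. The deviations of same-numbered libraries correlated at -0.15, 0.10 and 0.24, and WT library 1 correlated best with knockout library 2 (0.31), so the numbers were not taken to pair the samples. For the *Lama1* share and the ratio of *Col4a1* to *Col4a2* the paired exact test gave p = 0.25, the smallest that 3 pairs allow.

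*Lama4*, *Col4a6*, *Col3a1*, *Lox* and *Mmp9*, all under 4 CPM, have wide intervals with these 3 libraries for each genotype, and the part of depth in them was not tested.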
